A study of Sus scrofa with 16 samples.

Results

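The genes of the 3 fibrinogen chains, FGA (α chain), FGB (β chain) and FGG (γ chain), were examined in pig liver, and they are 3 of the 25880 genes listed for each pig. They were taken by gene identifier and annotated pig symbol (FGA ENSSSCG00000008998, FGB ENSSSCG00000008997, FGG ENSSSCG00000024314). The identifiers of FGB and FGG were matched in a table of pig gene symbols, in which that of FGA has no symbol. FGA was paired with its symbol through a supplementary table of genes that the study selected by its own results. From that table only identifiers and symbols were taken. The study asked how the kind of fat in the feed affects the liver transcriptome, and 16 crossbred pigs, 8 gilts and 8 barrows, gave 1 library each from the 3′ ends of liver mRNA (QuantSeq). The replicates are therefore separate animals. The dams were Polish Landrace and Polish Large White crosses and the sires Duroc and Pietrain crosses, and the pigs were fattened from 60 to 118 kg in single pens with straw, on feeds alike in energy and protein that differed in the added fat. Group R (3 gilts and 2 barrows) received rapeseed oil, group B (2 gilts and 3 barrows) beef tallow and group C (3 gilts and 3 barrows) coconut oil.

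Fibrinogen is the precursor of fibrin, the mesh of a blood clot, and the liver is its main source. Hepatocytes make the α, β and γ chains as separate polypeptides, which are joined in equal numbers in the endoplasmic reticulum before the protein is secreted. It is an acute phase protein, and interleukin 6 is known to raise the transcription of its genes together.

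The counts on genes came to 705669 to 1767671 reads in a pig (median 1018321.5). Every chain had reads in all 16 pigs, with 9400 to 67689 reads for FGA, 14390 to 38067 for FGB and 5425 to 16027 for FGG. At this depth, the 95% exact binomial interval of a chain's or of the summed share of the gene reads of 1 pig extended at most 0.0495 percentage points on average below and above the share, and counting error was at most 1.36% of a chain's count. These intervals cover counting error only. A 3′ library gives about 1 read per transcript, so reads were not divided by gene length, and levels of different chains are compared as 3′ reads, which also depend on how completely the annotation holds each 3′ end. In bulk liver, fewer cells of a type and less RNA per cell cannot be told apart.

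Beef tallow pig 3 stood apart from the other 15 pigs. On the first principal component of 6891 genes, which held 19.3% of the variance, it lay at 63.35, and the next pig, coconut oil pig 1, at 18.78. Results for the chains and genes past the threshold are therefore given with and without it where group B takes part.

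The 3 chains together took a large share of the liver's 3′ reads. Their sum was 4.16%, 4.59%, 4.21%, 5.28% and 3.90% of the gene reads in rapeseed oil pigs 1 to 5, with a mean of 4.43% ± 0.536 (SD, n = 5). The beef tallow pigs 1 to 5 had 5.99%, 5.26%, 6.66%, 6.42% and 5.96%, with a mean of 6.06% ± 0.534 (SD, n = 5). Among the coconut oil pigs the lowest value was 3.21%, the median 4.08% and the highest 4.41%, with a mean of 3.99% ± 0.445 (SD, n = 6). Every pig of group B was above every pig of group C, and 4 of the 5 pigs of group B were above every pig of group R. The mean of group B without beef tallow pig 3 was 5.91% ± 0.481 (SD, n = 4). The sum was described without a test. Of all reads tallied by the counting, including those on no gene, the 3 chains took on average 2.20% (group R), 2.95% (group B) and 2.04% (group C).

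The chains were among the most abundant genes of each library. FGB ranked between 3 and 7 by read count among the genes of a pig (median 4), FGA between 2 and 8 (median 5) and FGG between 7 and 21 (median 11). FGG had the fewest reads of the 3 chains in all 16 pigs. FGB was above FGA in 10 pigs, while FGA was above FGB in rapeseed oil pig 2, in beef tallow pigs 2 to 5 and in coconut oil pig 1. Over all pigs the means of FGA and FGB, 20320 ± 7997 and 20230 ± 4132 CPM (counts scaled to normalized library size; SD, n = 16), differed by less than their spread, and FGG had 7981 ± 2169.

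FGA encodes the α chain, from which thrombin releases fibrinopeptide A to start the assembly of fibrin. Its level in rapeseed oil pigs 1 to 5 was 18290, 19660, 17210, 21840 and 16410 CPM. FGA in beef tallow pigs 1 to 5 was at 23460, 22900, 44430, 28620 and 25750 CPM. Coconut oil pigs had a lowest FGA level of 12140, a median of 14250 and a highest of 17910 CPM. All 5 pigs of group B lay above all pigs of both other diets, with beef tallow pig 3 far above the rest, and 5 of the 6 coconut oil pigs lay below every rapeseed oil pig, the exception being coconut oil pig 1. Without overlap between the diets, in either direction, were 4.574% of the 6318 genes tested in R vs. B, where chance gives 0.794%, and 1.453% of the 6812 genes tested in B vs. C, where chance gives 0.433%.

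The mean of FGA was 18680 ± 2148 CPM in group R (SD, n = 5), 29030 ± 8899 in group B (SD, n = 5) and 14440 ± 2176 in group C (SD, n = 6). Changes are given as log2 fold changes with their standard error (SE) from the quasi-likelihood test of edgeR, adjusted by the Benjamini-Hochberg method over all genes tested, with a threshold of 0.05, and the first diet named is the reference. In R vs. B the log2 fold change of FGA was 0.64 (SE 0.20, edgeR adjusted p = 0.141), in R vs. C it was -0.38 (SE 0.15, edgeR adjusted p = 0.308), and in B vs. C it was -1.01 (SE 0.20, edgeR adjusted p = 0.0668). In B vs. C, FGA ranked 8 of 6812 genes by p. With beef tallow pig 3 left out, the log2 fold change of FGA was 0.43 in R vs. B (SE 0.16, edgeR adjusted p = 0.161) and -0.80 in B vs. C (SE 0.16, edgeR adjusted p = 0.0641), and the remaining beef tallow pigs, at 22900 to 28620 CPM, also lay above all pigs of groups R and C.

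The call of FGA depended on the tool. With DESeq2 the same changes of FGA, 0.63 in R vs. B (DESeq2 adjusted p = 0.0497) and -1.01 in B vs. C (DESeq2 adjusted p = 0.000400), passed the threshold, and with all 16 pigs in 1 edgeR fit, in which 0.1161% of 6891 genes passed in B vs. C, the adjusted p of FGA was 0.0148 for that pair. Without beef tallow pig 3, a choice made after seeing the data, FGA did not pass in R vs. B with DESeq2 (log2 fold change 0.43, DESeq2 adjusted p = 0.0648), where 3.636% of 6435 genes did, nor with the other 15 pigs in 1 edgeR fit (0.42, edgeR adjusted p = 0.165), where 1.888% of 6991 did. In B vs. C it passed in both, with -0.80 in DESeq2 (DESeq2 adjusted p = 1.58e-05), where 2.857% of the 1785 genes left by its filter passed, and -0.80 in the fit of 15 pigs (edgeR adjusted p = 0.0244), where 0.1716% of 6991 passed. Over its alternatives, the adjusted p of FGA ranged from 0.0497 to 0.297 in R vs. B, with 1 of 20 past the threshold, and from 1.58e-05 to 0.528 in B vs. C, with 4 of 21 past it.

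FGB encodes the β chain, which gives up fibrinopeptide B. Its level in rapeseed oil pigs 1 to 5 was 18460, 18440, 18600, 22260 and 16820 CPM. FGB in beef tallow pigs 1 to 5 was at 27450, 21850, 13350, 26060 and 23820 CPM. Coconut oil pigs had a lowest FGB level of 14240, a median of 20580 and a highest of 23270 CPM. Beef tallow pig 3, which had the highest FGA, had the lowest FGB of all 16 pigs, and the 3 diets overlapped in FGB.

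The mean of FGB was 18920 ± 2008 CPM in group R (SD, n = 5), 22510 ± 5545 in group B (SD, n = 5) and 19430 ± 3964 in group C (SD, n = 6). Its log2 fold change was 0.25 in R vs. B (SE 0.20, edgeR adjusted p = 0.590), 0.04 in R vs. C (SE 0.17, edgeR adjusted p = 0.957) and -0.21 in B vs. C (SE 0.21, edgeR adjusted p = 0.729). These differences did not pass the test, and the sign in R vs. C turned when single pigs were left out. Without beef tallow pig 3 the mean of group B was 24790 ± 2468 CPM (SD, n = 4), and the log2 fold change was 0.39 in R vs. B (SE 0.15, edgeR adjusted p = 0.197) and -0.35 in B vs. C (SE 0.18, edgeR adjusted p = 0.522). Over its alternatives the adjusted p of FGB ranged from 0.0954 to 0.746 in R vs. B and from 0.308 to 0.858 in B vs. C.

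FGG encodes the γ chain, which carries the sites where fibrin units are cross-linked end to end and where platelets bind. Its level in rapeseed oil pigs 1 to 5 was 6886, 8215, 7776, 10820 and 6207 CPM. FGG in beef tallow pigs 1 to 5 was at 12250, 7838, 7359, 12490 and 8377 CPM. Coconut oil pigs had a lowest FGG level of 5068, a median of 6392 and a highest of 8367 CPM. Beef tallow pigs 1 and 4 were the highest of all pigs, the other beef tallow pigs lay within the range of group R, and 4 of the 6 coconut oil pigs were below every beef tallow pig.

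The mean of FGG was 7981 ± 1768 CPM in group R (SD, n = 5), 9661 ± 2496 in group B (SD, n = 5) and 6580 ± 1205 in group C (SD, n = 6). Its log2 fold change was 0.28 in R vs. B (SE 0.21, edgeR adjusted p = 0.569), -0.28 in R vs. C (SE 0.17, edgeR adjusted p = 0.518) and -0.55 in B vs. C (SE 0.19, edgeR adjusted p = 0.300). With beef tallow pig 3 left out it was 0.36 in R vs. B (SE 0.20, edgeR adjusted p = 0.368) and -0.64 in B vs. C (SE 0.19, edgeR adjusted p = 0.230). DESeq2 without that pig called FGG in B vs. C (-0.64, DESeq2 adjusted p = 0.0443). Over its alternatives the adjusted p of FGG ranged from 0.368 to 0.788 in R vs. B and from 0.0443 to 0.678 in B vs. C, with 1 of 21 past the threshold. Leaving out each pig in turn, its log2 fold change ranged from 0.17 (without beef tallow pig 4) to 0.41 in R vs. B and from -0.36 to -0.15 (without rapeseed oil pig 4) in R vs. C.

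**Figure D1:**
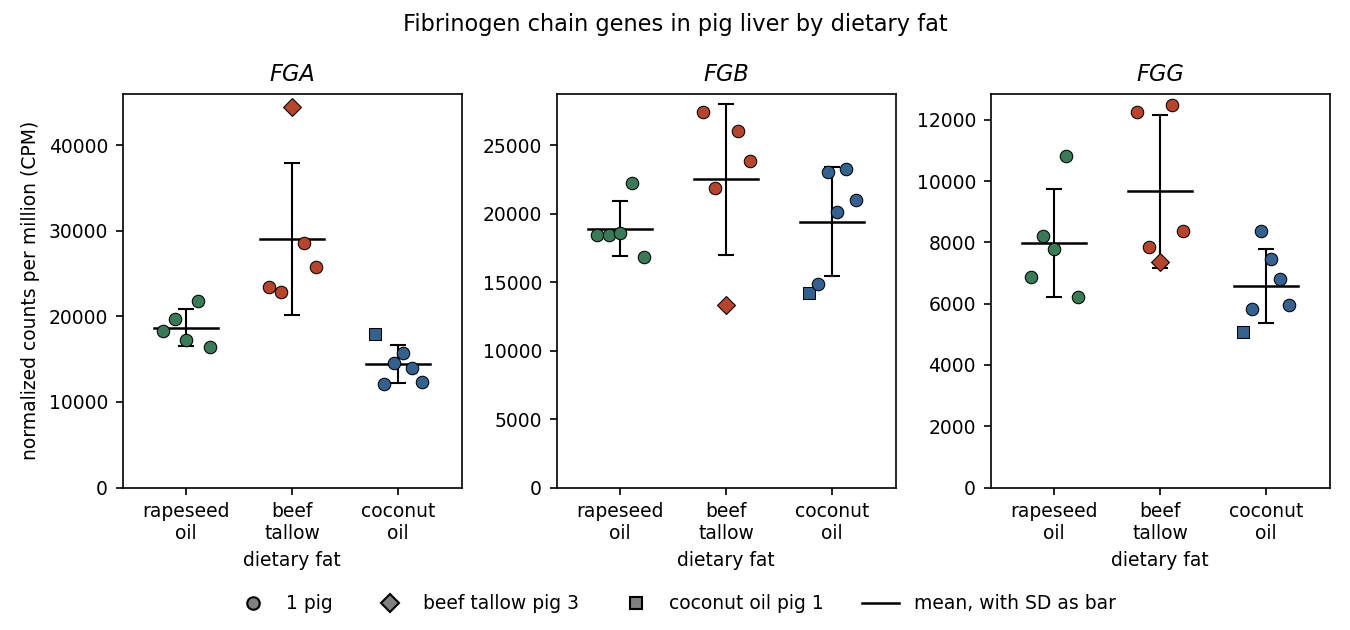
Level of each fibrinogen chain gene (vertical axis, CPM, with a separate scale starting at 0 in each panel) by dietary fat, with 1 point per pig, the mean as a line and the SD as a bar. FGA of the beef tallow pigs, from 22900 to 44430 CPM, lies above every other pig, while FGB and FGG overlap between diets, and beef tallow pig 3 is highest in FGA and lowest in FGB.

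Each pair of diets shares the pigs of a diet with each of the other pairs, so the 3 comparisons are not independent of each other. In R vs. B, 0 of the 3 chains passed the edgeR test, against 1.108% of the 6318 genes tested (41 higher and 29 lower in group B). FGA alone had an unadjusted edgeR p under the threshold, which 14.99% of the genes tested had, and FGA alone passed in DESeq2, as did 4.125% of the 4848 genes left by its filter. In R vs. C, 0 of the 3 chains passed the edgeR test, against 0.1379% of 6528 genes, and FGA alone had an unadjusted p under the threshold, against 12.97% of genes. DESeq2 called 0 of the 3 chains in R vs. C and 1.467% of 6271 genes, and 0 of the chains had diets that did not overlap, against 1.455% of genes, where chance gives 0.433%. In B vs. C, 0 of the 3 chains passed the edgeR test, against 0.05872% of 6812 genes, FGA and FGG had an unadjusted p under the threshold, against 11.45% of genes, and FGA alone passed in DESeq2, as did 0.7645% of 6148 genes. When beef tallow pig 3 was left out, 0 of the 3 chains passed the edgeR test in either pair with group B, against 2.315% of 6436 genes in R vs. B and 0.08846% of 6783 in B vs. C. FGA and FGB had then an unadjusted p under the threshold in R vs. B, against 17.51% of genes, and FGA and FGG in B vs. C, against 10.35%, and DESeq2 called 0 chains in R vs. B, against 3.636% of 6435 genes, and FGA and FGG in B vs. C, against 2.857% of 1785. The median log2 fold change of the 3 chains was 0.28 in R vs. B, -0.28 in R vs. C and -0.55 in B vs. C, while over all genes tested it was 0.01, -0.0011 and -0.0045.

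In all 3 chains the mean was highest in group B, but the order of groups R and C differed between chains. FGA and FGG had lower means in group C than in group R, while the mean of FGB in group C was 1.03-fold that in group R. The mean of FGA in group B was 1.55-fold that in group R, against 1.19-fold for FGB and 1.21-fold for FGG. In group C it was 0.497-fold that of group B, against 0.863-fold for FGB and 0.681-fold for FGG. The larger fold of FGA in R vs. B rested on beef tallow pig 3, without which the folds were 1.35 for FGA, 1.31 for FGB and 1.28 for FGG. In B vs. C they were then 0.573, 0.783 and 0.643. Whether the chains differed in these folds was tested only through the ratios between chains.

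A ratio of chains within a pig does not depend on the scaling of libraries. The ratio of FGA to FGB reads in rapeseed oil pigs 1 to 5 was 0.991, 1.07, 0.925, 0.981 and 0.975. Beef tallow pigs 1 to 5 had ratios of 0.855, 1.05, 3.33, 1.10 and 1.08. Coconut oil pigs had a lowest ratio of 0.586, a median of 0.702 and a highest of 1.26. Rapeseed oil pigs had nearly as many FGA as FGB reads, 5 of the 6 coconut oil pigs lay below all pigs of groups R and B, and beef tallow pig 3 and coconut oil pig 1 were the highest of their diets. In beef tallow pig 3, FGA made up 68.2% of the fibrinogen reads and FGB 20.5%, while in the other beef tallow pigs FGA made up 37.1% to 44.4%.

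The SD of the log2 ratio of FGA to FGB was 0.07 in group R (n = 5), 0.78 in group B (n = 5) and 0.42 in group C (n = 6), and 0.17 in group B without beef tallow pig 3 (n = 4). The geometric mean of the ratio was 0.987 (group R), 1.29 (group B) and 0.750 (group C). Ratios were compared by two-sided exact permutation tests of the log2 ratio, adjusted over 9 tests (3 ratios in 3 pairs of diets). The mean log2 ratio of FGA to FGB differed by 0.38 in R vs. B (exact p = 0.325, adjusted p = 0.418), by -0.40 in R vs. C (exact p = 0.0823, adjusted p = 0.185) and by -0.78 in B vs. C (exact p = 0.0476, adjusted p = 0.182).

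These values depended on single pigs. Without beef tallow pig 3 the geometric mean of the FGA to FGB ratio in group B was 1.01, and the log2 difference was 0.04 in R vs. B (exact p = 0.651, adjusted p = 0.732) and -0.44 in B vs. C (exact p = 0.105, adjusted p = 0.300). Without coconut oil pig 1, group C lay below groups R and B without overlap, and the log2 difference was -0.54 in R vs. C and -0.93 in B vs. C, each with exact p = 0.00794, the smallest that 5 pigs against 5 allow, and adjusted p = 0.0357. Over all alternatives the adjusted p ranged from 0.114 to 0.732 in R vs. B, and from 0.0357 to 0.562 in the other pairs, with 1 of 13 past the threshold in each.

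The ratio of FGG to FGB was 0.373, 0.445, 0.418, 0.486 and 0.369 in rapeseed oil pigs 1 to 5. For beef tallow pigs 1 to 5 it was 0.446, 0.359, 0.551, 0.479 and 0.352. In group C the lowest ratio was 0.283, the median 0.360 and the highest 0.391. The diets overlapped, with 4 of the 6 coconut oil pigs below every rapeseed oil pig. The log2 ratio differed by 0.05 in R vs. B (exact p = 0.738, adjusted p = 0.738), by -0.29 in R vs. C (exact p = 0.0303, adjusted p = 0.182) and by -0.34 in B vs. C (exact p = 0.0606, adjusted p = 0.182). Leaving out beef tallow pig 3 gave a difference of -0.04 in R vs. B (exact p = 0.778, adjusted p = 0.778) and -0.25 in B vs. C (exact p = 0.133, adjusted p = 0.300). Over all alternatives the adjusted p ranged from 0.492 to 0.968 in R vs. B and from 0.119 to 0.562 in B vs. C.

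The ratio of FGA to FGG ranged from 2.02 to 2.66 (group R), from 1.92 to 6.04 (group B) and from 1.73 to 3.53 (group C), with medians of 2.39, 2.92 and 2.08. Beef tallow pig 3 and coconut oil pig 1 held the highest values, and without beef tallow pig 3 the highest of group B was 3.07. Its log2 value differed by 0.33 in R vs. B (exact p = 0.310, adjusted p = 0.418), by -0.11 in R vs. C (exact p = 0.571, adjusted p = 0.643) and by -0.44 in B vs. C (exact p = 0.199, adjusted p = 0.358). After beef tallow pig 3 was left out it differed by 0.08 in R vs. B (exact p = 0.619, adjusted p = 0.732) and by -0.18 in B vs. C (exact p = 0.438, adjusted p = 0.732). Over all alternatives the adjusted p ranged from 0.148 to 0.732 in R vs. B and from 0.0857 to 0.732 in B vs. C. In R vs. C the difference ranged from -0.24 (without coconut oil pig 1, exact p = 0.0397, adjusted p = 0.0857) to -0.04 (without coconut oil pig 3) when each pig was left out, and the adjusted p over all alternatives from 0.0857 to 0.873. Of the 9 tests of ratios, 0 passed after adjustment and 2 had an unadjusted exact p under the threshold.

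**Figure D2:**
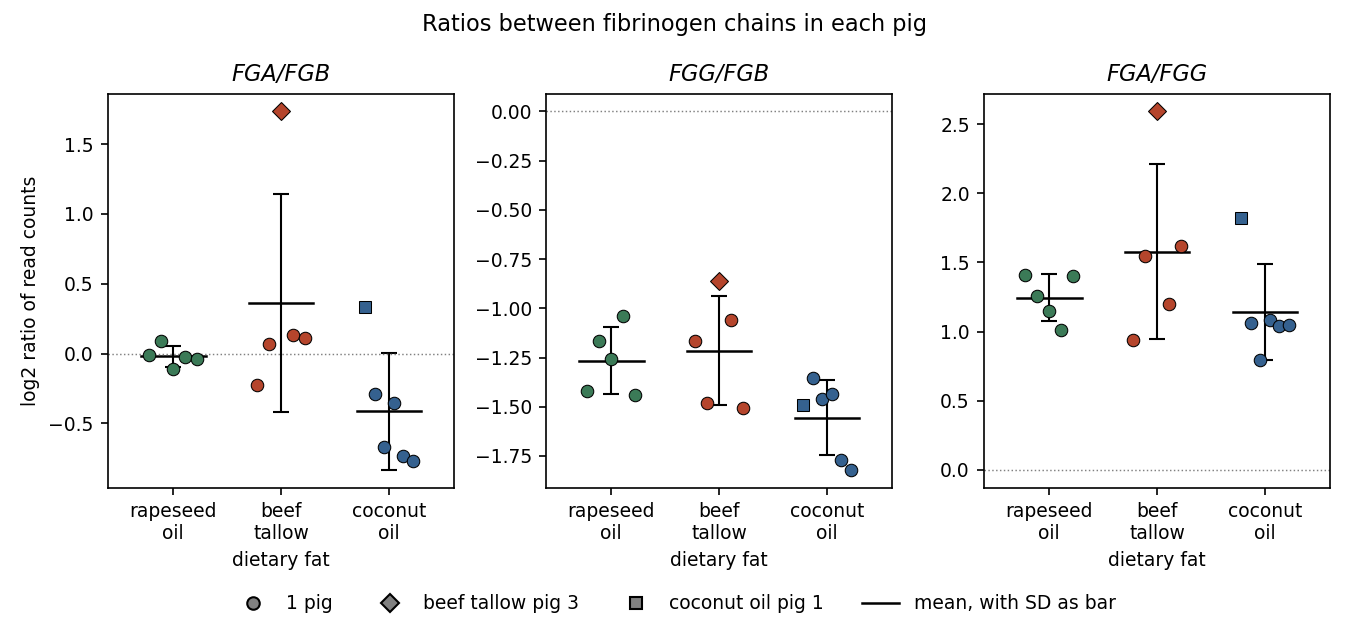
Log2 ratio of read counts between pairs of chains in each pig (vertical axis, log2, with a separate scale in each panel) by dietary fat, with 1 point per pig, the mean as a line and the SD as a bar. For FGA to FGB the rapeseed oil pigs lie close to equal reads, 5 of the 6 coconut oil pigs lie below them, and beef tallow pig 3 is at 1.73.

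The chains did not all vary together from pig to pig. Correlations of log2 CPM across the 16 pigs were computed with the pigs pooled and with the mean of each diet subtracted, and their permutation p-values were adjusted over 12 tests. FGB and FGG varied together, with Pearson's r = 0.73 (permutation p = 0.00139, adjusted p = 0.00556) and Spearman's rho = 0.72 (permutation p = 0.00241, adjusted p = 0.00723) over the pooled pigs. With diet means subtracted, r was 0.76 (permutation p = 0.00034, adjusted p = 0.00204) and rho 0.79 (permutation p = 0.00015, adjusted p = 0.0018). With beef tallow pig 3 and coconut oil pig 1 left out, the pigs farthest from the median of FGB, r was 0.75 pooled and 0.72 within diets. Without beef tallow pig 3 alone, a choice made after seeing the data, it was 0.81 and 0.77.

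Over the pooled pigs, FGA and FGG passed by rank but not by Pearson's r, with r = 0.50 (permutation p = 0.0464, adjusted p = 0.0928) and rho = 0.64 (permutation p = 0.00978, adjusted p = 0.0235), and r was 0.63 without beef tallow pigs 3 and 4. Within diets neither passed, with r = -0.06 (permutation p = 0.889, adjusted p = 0.970) and rho = 0.05 (permutation p = 0.859, adjusted p = 0.970), and it depended on single pigs, since r was 0.60 without beef tallow pig 3 and coconut oil pig 1. When beef tallow pig 3 alone was left out, r was 0.72 pooled (permutation p = 0.00232, adjusted p = 0.00464) and 0.35 within diets (permutation p = 0.220, adjusted p = 0.293). With shares of gene reads in place of CPM, the other alternative, the adjusted p was 0.253 pooled and 0.875 within diets.

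FGA and FGB were not related over the pooled pigs, with r = -0.0033 (permutation p = 0.990, adjusted p = 0.990) and rho = 0.21 (permutation p = 0.436, adjusted p = 0.581). Within diets r was -0.51 (permutation p = 0.134, adjusted p = 0.230) and rho -0.25 (permutation p = 0.397, adjusted p = 0.581). These values rested on a few pigs, since r was 0.40 pooled without beef tallow pigs 3 and 4, and 0.32 within diets without beef tallow pig 3 and coconut oil pig 1. When beef tallow pig 3 alone was left out, r was 0.50 pooled (permutation p = 0.0578, adjusted p = 0.0991) and 0.06 within diets (permutation p = 0.860, adjusted p = 0.860). With shares of gene reads the adjusted p was 0.888 pooled and 0.210 within diets.

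**Figure D3:**
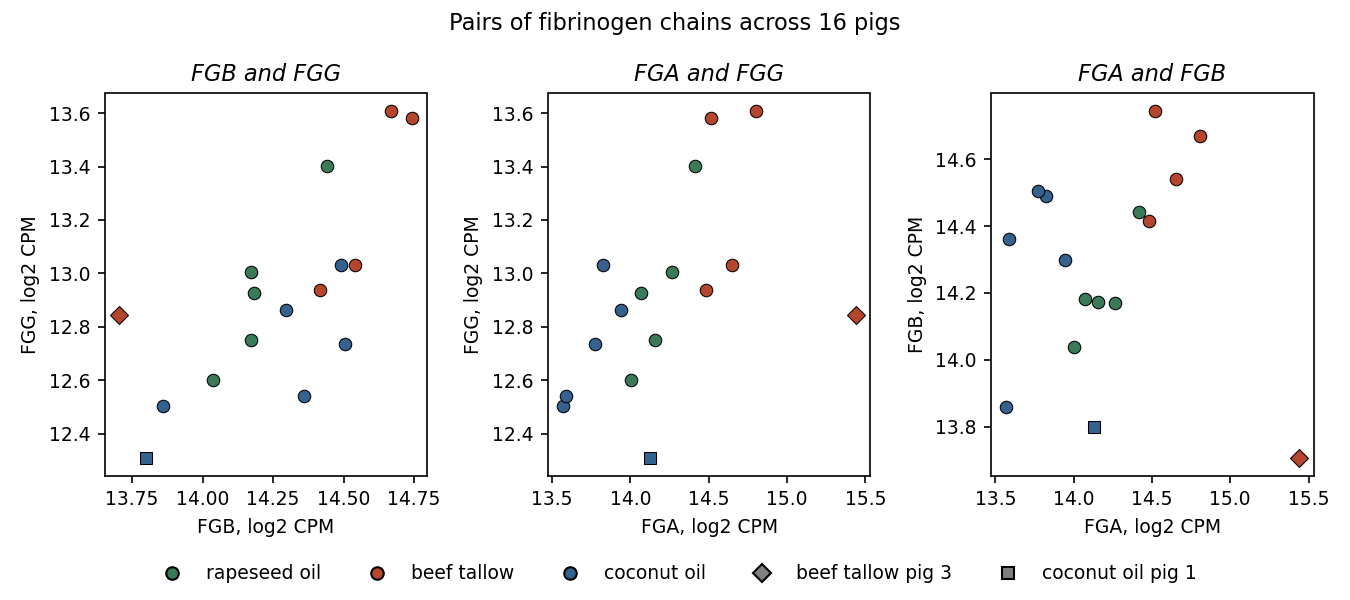
Log2 CPM of 1 chain against another across the 16 pigs (both axes, log2 CPM), coloured by dietary fat, with beef tallow pig 3 as a diamond and coconut oil pig 1 as a square. FGB and FGG lie along a rising band (r = 0.73), and beef tallow pig 3 lies far from the other pigs wherever FGA is plotted.

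The diets held unequal numbers of gilts and barrows, so the sexes were compared over all 16 pigs with diet in the fit. FGA had 21760 ± 9718 CPM in gilts and 18890 ± 6156 in barrows (SD, n = 8 each), and the log2 fold change of barrows against gilts was -0.29 (SE 0.14, edgeR adjusted p = 0.914). For FGB it was -0.03 (SE 0.16, edgeR adjusted p = 0.992) and for FGG -0.14 (SE 0.16, edgeR adjusted p = 0.960). Beef tallow pig 3 is a gilt, and without it the mean of FGA in gilts was 18520 ± 3506 CPM (SD, n = 7), below that of barrows. The log2 fold change with diet in the fit was then -0.16 for FGA (SE 0.13, edgeR adjusted p = 1.00), -0.15 for FGB (SE 0.14, edgeR adjusted p = 1.00) and -0.22 for FGG (SE 0.15, edgeR adjusted p = 1.00), and over the alternatives the adjusted p was at least 0.998 for each chain. The edgeR test called 0 of the 3 chains between the sexes, against 0.07855% of 6365 genes, and 0 of the chains had an unadjusted p under the threshold, against 4.902% of genes. The edgeR test of the interaction of diet and sex called 0 of all genes tested in each pair of diets, with 250, 260 and 240 at an unadjusted p under the threshold, so it does not tell the chains from other genes. The diet differences of the chains kept their direction with sex as a covariate.

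The 3 genes lie side by side on chromosome 8 of Sscrofa11.1, with FGG at chr8:74553040-74562151, FGA at chr8:74574870-74584202 and FGB at chr8:74598170-74607409 in the RefSeq annotation. FGG and FGA are 12718 bp apart and FGA and FGB 13967 bp, and the cluster spans 54370 bp. FGA thus lies between FGG and FGB. The abundance of the chains was not shared by the genes around them. Of the 5 protein-coding genes on each side, ANXA3, LOC102167454 and LOC100627016 were not matched to an identifier. PLRG1, a splicing factor gene next to FGB, had 3 to 12 reads per pig, RBM46 had 0 to 5, NPY2R and SFRP2 at most 1 and DCHS2 0.

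Only LRAT and TLR2 among these neighbours passed the filter on low counts. LRAT, which encodes the enzyme that esterifies retinol in stellate cells, had 20.8 ± 3.19, 12.2 ± 4.32 and 15.2 ± 3.60 CPM in groups R, B and C (SD), and its log2 fold change was -0.77 in R vs. B (SE 0.28, edgeR adjusted p = 0.192). TLR2, which encodes a receptor for bacterial lipoproteins, had 14.6 ± 7.85, 29.2 ± 5.95 and 12.8 ± 2.90 CPM in groups R, B and C (SD). Its log2 fold change was 1.01 in R vs. B (SE 0.32, edgeR adjusted p = 0.136), -0.20 in R vs. C (SE 0.32, edgeR adjusted p = 0.854) and -1.21 in B vs. C (SE 0.23, edgeR adjusted p = 0.0668). After beef tallow pig 3 was left out, it was 1.03 (edgeR adjusted p = 0.116) in R vs. B and -1.22 (edgeR adjusted p = 0.0641) in B vs. C, and that of LRAT was -0.83 (edgeR adjusted p = 0.161) in R vs. B.

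The genes most like the chains across the 16 pigs were ranked by their mean Pearson r with the 3 chains after subtraction of diet means, over 6891 genes. The highest were HGF, the hepatocyte growth factor gene, with a mean r of 0.55, GSKIP with 0.54, LIPG, an endothelial lipase gene, with 0.53, PIK3C2G with 0.53 and KCTD5 with 0.51. Over the genes compared, the median was -0.0033 and the 99th percentile 0.42. LIPG had r = 0.93 with FGG, 0.68 with FGB and -0.02 with FGA, and HGF 0.79, 0.61 and 0.26. The mean r of each chain with both others was 0.35 for FGG, 0.13 for FGB and -0.28 for FGA. The values with FGA rested on beef tallow pig 3, without which r with FGA was 0.29 for LIPG and 0.54 for HGF, and the mean r was 0.56 for FGG, 0.42 for FGB and 0.21 for FGA. Over the genes compared, the 99th percentile was then 0.55, HGF and GSKIP ranked 1 and 2, and PIK3C2G, LIPG and KCTD5 ranked 3, 4 and 9. These values describe these pigs and were not tested.

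Fibrinogen is the substrate of the coagulation cascade, and of 13 coagulation factors 10 were tested. In edgeR 0 passed in any pair of diets, with 1 (R vs. B), 1 (R vs. C) and 2 (B vs. C) at an unadjusted p under the threshold, against 14.99%, 12.97% and 11.45% of all genes tested, and DESeq2 called 1, 0 and 0, against 4.125%, 1.467% and 0.7645% of genes. The median log2 fold change of the list was -0.07, -0.05 and 0.04 in the same order, which also holds below, and over all genes tested 0.01, -0.0011 and -0.0045. These medians depended on beef tallow pig 3, without which that of the list was -0.16 in R vs. B and 0.13 in B vs. C, against 0.0015 and 0.0037 over all genes. The most abundant were F2 (prothrombin), with 2418 ± 441.9, 2267 ± 342.5 and 2939 ± 315.9 CPM in groups R, B and C (SD), and KNG1 (kininogen), with 1890 ± 31.2, 1728 ± 202.6 and 1856 ± 147.3. The log2 fold change of F2 in B vs. C was 0.38 (SE 0.15, edgeR adjusted p = 0.365), which is of the opposite sign to that of FGA. Without beef tallow pig 3 it was 0.31 (edgeR adjusted p = 0.479). Of the 10 factors tested in B vs. C, 5 were higher and 5 lower in group C.

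Of 14 genes of fibrinolysis and anticoagulation, 9 were tested. In edgeR 0 passed in any pair, with 0, 3 and 2 at an unadjusted p under the threshold (14.99%, 12.97% and 11.45% of all genes), DESeq2 called 0 in every pair (4.125%, 1.467% and 0.7645% of all genes), and the medians were -0.17, -0.19 and -0.15, or -0.20 in R vs. B and 0.05 in B vs. C without beef tallow pig 3. HRG, a plasma glycoprotein that binds plasminogen and fibrinogen, had 3829 ± 939.6, 3675 ± 1088 and 4726 ± 1474 CPM in groups R, B and C (SD), and SERPINC1 (antithrombin) 2577 ± 334.8, 2164 ± 574.7 and 2672 ± 369.3.

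Of 13 relatives with a fibrinogen-like domain, 5 were tested in R vs. B and in R vs. C and 6 in B vs. C. In edgeR 0 passed in any pair, with 1, 3 and 2 at an unadjusted p under the threshold (14.99%, 12.97% and 11.45% of all genes), DESeq2 called 1, 0 and 0 (4.125%, 1.467% and 0.7645% of all genes), and the medians were 0.29, 0.48 and 0.24, or 0.30 in R vs. B and 0.23 in B vs. C without beef tallow pig 3. FGL1, a fibrinogen-like protein secreted by hepatocytes, had 1409 ± 255.0, 1416 ± 354.1 and 1272 ± 165.3 CPM in groups R, B and C (SD), and its log2 fold change in R vs. B was 0.01 (SE 0.19, edgeR adjusted p = 0.996).

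Interleukin 6 acts on fibrinogen genes through its receptor, STAT3 and liver transcription factors. The list examined held 17 genes of this pathway and transcription factors, not all of which carry that effect. Of these 17 genes, 15 were tested in R vs. B and in B vs. C and 14 in R vs. C. In edgeR 0 passed in any pair, with 2, 0 and 3 at an unadjusted p under the threshold (14.99%, 12.97% and 11.45% of all genes), and DESeq2 called 0 in every pair (4.125%, 1.467% and 0.7645% of all genes). The median log2 fold change was 0.30 in R vs. B, -0.15 in R vs. C and -0.26 in B vs. C, or 0.33 and -0.24 in R vs. B and B vs. C without beef tallow pig 3. Without that pig, SOCS3 passed in B vs. C (-1.46, SE 0.25, edgeR adjusted p = 0.0309), against -1.15 with it (edgeR adjusted p = 0.299). This was 1 of 15, against 0.08846% of all genes. In R vs. B and B vs. C, 4 and 4 had then an unadjusted p under the threshold (17.51% and 10.35% of all genes). DESeq2 called 1 and 0 (3.636% and 2.857% of all genes). IL6R, the interleukin 6 receptor gene, had 560.6 ± 163.4, 425.9 ± 31.3 and 469.4 ± 124.5 CPM in groups R, B and C (SD), and HNF4A, a hepatocyte transcription factor gene, 349.6 ± 151.6, 496.8 ± 44.3 and 432.3 ± 144.9.

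Of 16 positive acute phase proteins, the group to which fibrinogen belongs, 11 were named in the table of symbols and 9 of these tested. In edgeR 0 passed in R vs. B and in R vs. C, with 3, 2 and 4 of the 9 at an unadjusted p under the threshold in the 3 pairs (14.99%, 12.97% and 11.45% of all genes), and DESeq2 called 2, 1 and 3 (4.125%, 1.467% and 0.7645% of all genes). In B vs. C, 2 of the 9 were lower in group C, against 0.05872% of all genes called in either direction, namely ITIH4 (log2 fold change -1.43, SE 0.20, edgeR adjusted p = 0.00538) and LBP (-1.28, SE 0.19, edgeR adjusted p = 0.00887), and the medians of the list were 0.14, -0.09 and -0.17, or 0.02 in R vs. B and -0.10 in B vs. C without beef tallow pig 3. After beef tallow pig 3 was left out, both passed in B vs. C, ITIH4 with -1.49 (edgeR adjusted p = 0.00328) and LBP with -1.24 (edgeR adjusted p = 0.0152), and ITIH4 also in R vs. B with 0.90 (edgeR adjusted p = 0.0427). HP (haptoglobin), named like FGA through the study's table and left out of these counts, had 31070 ± 1614, 42310 ± 8954 and 28130 ± 2838 CPM in groups R, B and C (SD). C3, a complement gene, had 7916 ± 1323, 6921 ± 785.6 and 7031 ± 494.1 CPM. SAA2, a serum amyloid gene named in the same way as HP, had a log2 fold change of 1.75 in R vs. B (SE 0.41, edgeR adjusted p = 0.0495), and 1.99 without beef tallow pig 3 (edgeR adjusted p = 0.00696). ORM1, an orosomucoid gene also named in that way, had log2 fold changes of the opposite sign, -0.74 in R vs. B (SE 0.33, edgeR adjusted p = 0.295) and 0.99 in B vs. C (SE 0.28, edgeR adjusted p = 0.228).

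Of 8 negative acute phase proteins, which fall in inflammation, all were tested. TTR (transthyretin) was lower in beef tallow than in rapeseed oil pigs (log2 fold change -0.78, SE 0.17, edgeR adjusted p = 0.0426), also without beef tallow pig 3 (-0.77, edgeR adjusted p = 0.0308). This was 1 of 8, against 1.108% of all genes, and 0 passed in edgeR in the other pairs. At an unadjusted p under the threshold were 2, 3 and 1 (14.99%, 12.97% and 11.45% of all genes), and DESeq2 called 1, 1 and 0 (4.125%, 1.467% and 0.7645% of all genes). The medians were -0.19, -0.07 and 0.19, or -0.11 in R vs. B and 0.08 in B vs. C without beef tallow pig 3. ALB (albumin) had 92050 ± 18590, 75510 ± 32950 and 97190 ± 29910 CPM in groups R, B and C (SD), and TF (transferrin) 21860 ± 3705, 20470 ± 2266 and 16870 ± 3261.

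Fibrinogen is assembled in the endoplasmic reticulum, and of 19 genes of folding and export all were tested. HSPA5, the chaperone BiP, was higher in group B than in group R (log2 fold change 1.54, SE 0.19, edgeR adjusted p = 0.00104), with 566.4 ± 97.7 CPM in group R and 1654 ± 329.7 in group B (SD), and also without beef tallow pig 3 (1.51, edgeR adjusted p = 0.000468). It was 1 of 19, against 1.108% of all genes, and in R vs. C and B vs. C 0 passed in edgeR. At an unadjusted p under the threshold were 4, 2 and 5 (14.99%, 12.97% and 11.45% of all genes), DESeq2 called 2, 2 and 1 (4.125%, 1.467% and 0.7645% of all genes), and the medians were 0.23, 0.09 and -0.29, or 0.18 in R vs. B and -0.25 in B vs. C without beef tallow pig 3. CANX (calnexin) had 1138 ± 209.1, 1260 ± 106.9 and 1327 ± 225.9 CPM in groups R, B and C (SD).

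The summed level of 8 hepatocyte markers, with ALB the most abundant at 88810 CPM on average, was lowest in the pig with the highest FGA. It was 113900, 101600, 99980, 145100 and 96280 CPM in rapeseed oil pigs 1 to 5. Beef tallow pigs 1 to 5 had sums of 133400, 89900, 44330, 112500 and 80400 CPM. Among coconut oil pigs the lowest sum, in coconut oil pig 1, was 80330, the median 107600 and the highest 170500 CPM. The diets overlapped, and beef tallow pig 3 and coconut oil pig 1, which had high ratios of FGA to FGB, held the lowest sum of all pigs and of group C. Of these markers 7 were tested, and TTR alone passed in edgeR, in R vs. B (1.108% of all genes). At an unadjusted p under the threshold were 2, 1 and 1 (14.99%, 12.97% and 11.45% of all genes). The medians were 0.04, -0.15 and -0.12, or -0.06 in R vs. B and -0.09 in B vs. C without beef tallow pig 3.

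The summed level of 7 of 8 Kupffer cell markers, the macrophages of the liver, was 1025, 1147, 1030, 752.1 and 612.7 CPM in rapeseed oil pigs 1 to 5. For beef tallow pigs 1 to 5 it was 1161, 847.7, 1698, 870.2 and 994.4 CPM. In group C the lowest sum was 613.1, the median 673.6 and the highest 884.3 CPM. Beef tallow pig 3 was the highest of all pigs in this sum as in FGA, groups B and C overlapped slightly, and without that pig the highest of group B was 1161 CPM. C1QA was the most abundant of these markers, with 485.8 CPM on average. Leaving out beef tallow pig 3 moved the mean of C1QA in group B from 599.3 to 504.6 CPM. That of CD163 moved only from 190.3 to 189.7 and that of MARCO from 19.8 to 20.8, so the markers did not all move 1 way. In R vs. B, CD163 alone passed, higher in group B (log2 fold change 0.79, SE 0.17, edgeR adjusted p = 0.0414), also without beef tallow pig 3 (0.79, edgeR adjusted p = 0.0285). This was 1 of 7, against 1.108% of all genes, and in edgeR 0 passed in R vs. C and in B vs. C. At an unadjusted p under the threshold were 1, 1 and 4 of the 7 (14.99%, 12.97% and 11.45% of all genes), and DESeq2 called 1, 0 and 0 (4.125%, 1.467% and 0.7645% of all genes). The median log2 fold change of these markers was 0.33 in R vs. B, -0.12 in R vs. C and -0.49 in B vs. C. With beef tallow pig 3 left out, it was 0.08 in R vs. B and -0.37 in B vs. C, where 2 had an unadjusted p under the threshold (10.35% of all genes) and 0 passed in edgeR or DESeq2.

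Markers of other cell types gave fewer reads than those of hepatocytes. The sums ranged from 275.4 to 456.2 CPM for 5 of 7 endothelial markers (CLEC4G most abundant), from 243.3 to 729.3 for 6 stellate and perivascular markers (COL3A1), from 2.95 to 28.4 for 4 of 5 cholangiocyte markers (SPP1), from 20.6 to 78.0 for 5 lymphocyte markers (JCHAIN) and from 500.7 to 4926 for 2 of 5 blood and platelet markers (HBB). The highest stellate and perivascular sum was that of beef tallow pig 3, and the next was 663.5 CPM in rapeseed oil pig 4. Among the endothelial markers LYVE1 was higher in group B than in group R (log2 fold change 0.88, SE 0.20, edgeR adjusted p = 0.0495), also without beef tallow pig 3 (0.89, edgeR adjusted p = 0.0338). It was 1 of 4 tested, against 1.108% of all genes. The log2 fold change of LYVE1 was 0.86 in R vs. C (SE 0.21, edgeR adjusted p = 0.104) and -0.02 in B vs. C (SE 0.21, edgeR adjusted p = 0.991). In R vs. C, 2 of the 4 had an unadjusted p under the threshold (12.97% of all genes), and DESeq2 called 1 (1.467% of all genes). RGS5 was not among the 5 stellate and perivascular markers tested in R vs. B. Of those, 2 had an unadjusted p under the threshold (14.99% of all genes), ACTA2 higher (log2 fold change 1.42) and LRAT lower (-0.77) in group B. The median log2 fold change of the 5 was -0.21. Without beef tallow pig 3, RGS5 was tested and was lower in group B (-2.85, SE 0.67, edgeR adjusted p = 0.0338). It had only 3.11 ± 4.38 CPM there (SD, n = 4), near the floor, and passed the filter through its level in group R. The direction of this call was therefore set by the filter. RGS5 was 1 of 6, against 2.315% of all genes. Then 4 of the 6 had an unadjusted p under the threshold (17.51% of all genes), with ACTA2 higher in group B (1.64) and the others lower. The median of the 6 was -0.58. Of the markers measured, 0 were without reads over the 16 pigs. The part of these cell types in the levels of the chains was not tested.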

How the data were processed

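Per the labels, libraries of mRNA 3′ ends were made from the livers of 16 pigs, and the authors deposited raw counts of reads per gene, for which their processing notes name FastQC, TopHat, HTSeq and DESeq2. The 5 tally lines for reads on no gene, such as those with several alignments, stayed out of library sizes. They held 44.9% to 57.2% of the tallied reads of a pig.

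Each pair of diets had its own fit in edgeR 4.0.16 in R 4.3.3 (quasi-likelihood F test, TMM, filterByExpr at its settings of 10 reads per pig and 15 in total, no covariate). Adjustment followed Benjamini and Hochberg over all genes tested, with a threshold of 0.05. The SE is the size of the log2 fold change divided by the square root of F. Levels are CPM with TMM over the 16 pigs. Ratios were compared by exact permutation, correlations by 100000 permutations, within diets where diet means were subtracted (SciPy 1.17.1, Python 3.11.15). Scripts across genes were tested on simulated data.

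Symbols were given for 14857 identifiers by the table of pig genes, and for 23 more by the study's table of genes selected by its own results. Named were the chains, list members past the threshold plus the 2 most abundant of each pathway list, the most abundant marker of each cell type, the 5 protein-coding genes on each side of the cluster, and the 5 genes most like the chains. Of these, 1 is not reported here. The chains, lists and rules were chosen with earlier results of these data known. Alternatives were set before the data were examined here and were DESeq2 1.42.0, other scalings, no filter, all pigs in 1 fit, sex as a covariate, a block for the number of a pig, each pig left out in turn, medians, shares, and all tallied reads. Correlations, mean shares, folds of means, the sex comparison, the likeness ranking, lists, DESeq2 and 1 common fit without beef tallow pig 3 were added after seeing the data.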

Additional observations from a re-analysis of the deposited data

Results flagged for a closer look

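In 21 groups of values (3 diets, each with the levels of the 3 chains, the summed share and the 3 log2 ratios), the highest and the lowest pig were compared with the other pigs of the diet, and 3 values, from 2 pigs, lay farther from the nearest other pig than the range of the group allows at the 95% level. Chance gives about 1 such value in 20 groups, but the groups share pigs and reads, and both values of beef tallow pig 3 hold its FGA reads. FGA in beef tallow pig 3 was 44430 CPM, and the next pig of the diet had 28620. The log2 ratio of FGA to FGB in beef tallow pig 3 was 1.73, and the next was 0.14. The log2 ratio of FGA to FGG in coconut oil pig 1 was 1.82, and the next was 1.08. The cause was not tested.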

How the results depend on the processing

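With DESeq2, the log2 fold change of FGA was 0.63 in R vs. B and -1.01 in B vs. C, both past the threshold, as was -1.01 in B vs. C with all 16 pigs in 1 fit. Without beef tallow pig 3, in B vs. C, FGA passed at -0.80 in DESeq2 and at -0.80 with 15 pigs in 1 fit, and FGG at -0.64 in DESeq2. Genes called were 200 with DESeq2, 190 without a filter and 35 with a replicate block in R vs. B (70 in the main test), 92 with DESeq2 and 82 without a filter in R vs. C (9), and 47 with DESeq2, 22 without a filter, 8 with all pigs in 1 fit and 7 with totals without the 20 most abundant genes in B vs. C (4). FGB in R vs. C reversed to -0.0129 with the replicate block, and FGB between sexes to 0.0143 without diet in the fit. Same-numbered pigs did not deviate together (r from -0.23 to 0.14, over 0.1 in 2 of 15 pairs, and highest with the own number in 3). These values gave no sign that the number pairs animals, but they cannot exclude it. With the block, FGA in B vs. C had an adjusted p of 0.528, and no call of a chain changed, while the ratios of 5 pairs cannot reach the threshold (smallest exact p 0.0625). With each pig left out, FGB in R vs. C ranged from -0.0237 to 0.1069 (reversed without rapeseed oil pig 5, coconut oil pig 3 or coconut oil pig 5), the log2 ratio of FGG to FGB in R vs. B from -0.0378 to 0.1242, that of FGA to FGB from -0.544 to -0.3236 in R vs. C and from -0.928 to -0.4365 in B vs. C, and genes called from 9 to 149 in R vs. B (most without beef tallow pig 3), from 3 to 27 in R vs. C and from 4 to 9 in B vs. C. Without the 2 farthest pigs, Pearson's r of FGA and FGB was 0.4013 pooled and 0.3222 within diets, and that of FGA and FGG 0.5958 within diets. Without beef tallow pig 3, chosen after seeing the data, r of FGA and FGB was 0.5011 pooled and 0.0639 within diets, and r of FGA and FGG 0.7221 pooled and 0.3485 within diets. Of all tallied reads, mean shares in groups R, B and C were 0.904%, 1.40% and 0.734% for FGA, 0.915%, 1.09% and 0.973% for FGB, 0.384%, 0.466% and 0.329% for FGG, and 2.20%, 2.95% and 2.04% for the sum, lower because the denominator is larger. RLE, plain totals and sex as a covariate changed no call or direction of a chain, nor did totals without the 20 most abundant genes. The causes of these changes were not tested otherwise. Depth limited the precision of the chains by at most 1.36% of a count, below the spread between pigs.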
